A study of Sus scrofa with 12 samples.

Results

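Preadipocytes from pig subcutaneous tissue, cells that can become fat cells, were compared after transfection with an siRNA against F2RL2 or with an siRNA against GPR124, each followed by 4 days of adipose differentiation. The comparison rests on 6 of the 12 arrays of the series, 3 per siRNA, whose groups were read from the sample titles. It was picked with earlier results in view, as the pair of knockdowns that was least alike. Across probes, log ratios of single arrays correlated at 0.61 to 0.74 between the F2RL2 and GPR124 groups, against 0.83 to 0.90 between F2RL2 and control siRNA and 0.84 to 0.92 between F2RL2 and LGR4 siRNA. The GPR124 arrays were about as far from the other groups, at 0.63 to 0.76 with control and 0.63 to 0.74 with LGR4 siRNA, so the low correlation is not particular to this pair. These correlations describe the arrays, which share one reference RNA.

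All cells came from female subcutaneous tissue and were grown in low-glucose medium with 10% serum. Differentiation was in high-glucose medium (4.5 g/L) with serum, 5 µg/mL insulin, 0.25 µM dexamethasone, 33 µM biotin, 17 µM pantothenate and 5 mM octanoate, and this holds for every transfected group. The other 6 arrays carried cells with a negative control siRNA (3 arrays) or an siRNA against LGR4 (3 arrays), and they serve here as points of comparison. On each array the transfected cells were labelled with Cy3 and untransfected day 0 preadipocytes with Cy5, from 400 ng of RNA each. All values are therefore log2 ratios of transfected, differentiated cells over that reference, unless stated. The difference between both siRNAs sets the same reference RNA against itself, apart from its own variation between arrays. The dyes were not swapped on any array, so a dye effect of a probe is part of its log ratio. Where equal on all arrays, such an effect drops out of the difference between the siRNAs, but not out of the side of the reference. The titles name the target F2RL2, and another label field spells it R2RL2; the titles were followed. The labels do not state how many siRNA sequences were used per target or whether replicates came from separate cultures. The p-values therefore reflect the spread among these arrays, part of which may be technical. In such bulk samples, fewer cells of a kind and less RNA per cell cannot be told apart.

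Differentiating preadipocytes, exposed to insulin and a glucocorticoid, switch on the transcription factors of the PPARG and C/EBP families, fill with lipid and lose much of their fibroblast-like gene expression. F2RL2 encodes a protease-activated receptor of the thrombin receptor family. GPR124, also named ADGRA2, is an adhesion receptor known as a coactivator of Wnt signalling, and LGR4 binds R-spondins and strengthens Wnt signalling; canonical Wnt signalling is known to restrain adipocyte formation. The sources used here name no gene and give no sequence for any of the probes. The targeted transcripts and the markers of fat cells or other cell types were thus not checked, and results are given for probes, each of which occurs in 1 spot.

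Several array measures move with the groups and touch the results below. Slide 1 held F2RL2 replicate 1 and all control arrays, slide 2 held F2RL2 replicates 2 and 3 and LGR4 replicates 1 and 2, and slide 3 held LGR4 replicate 3 and all GPR124 arrays. Within the 6 arrays, slide and siRNA cannot be told apart; the LGR4 arrays link the slides. Scanner software marked 3 to 4 probe spots as outliers on the F2RL2 arrays and 154 to 280 on the GPR124 arrays, and 335 on the LGR4 array of the same slide 3. Probes well above background, by the scanner's own flag, numbered 27071 to 29381 in Cy3 and 27003 to 31327 in Cy5 on the F2RL2 arrays. They numbered 24720 to 29243 and 23594 to 26485 on the GPR124 arrays. The median SD of a probe between replicates was 0.11 with F2RL2 siRNA and 0.12 with GPR124 siRNA. The spike-in RNAs had a slope of measured on nominal log ratio of 0.857 ± 0.0055 (SD, n = 3) on the F2RL2 arrays and 0.855 ± 0.0073 (n = 3) on the GPR124 arrays, which overlapped.

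The transcript profiles of both knockdowns differed broadly. Of 32344 probes tested, 13376 (41.4%) passed an adjusted p of 0.05, 6236 of them (19.3%) higher and 7140 (22.1%) lower with F2RL2 siRNA than with GPR124 siRNA (limma, Benjamini-Hochberg). With slide as a fixed block 5259 probes were called, and 3021 on the slides linked by LGR4 arrays. Most differences were small, with a median absolute log2 difference of 0.48 among the probes called and 0.22 among all probes tested, against a median standard error of 0.097. The higher side led among the large changes, with 888 probes higher (2.75%) and 642 lower (1.98%) at a log2 difference of at least 1, that is 58.0% higher. A log2 difference of 2 or more was found for 83 probes on the higher and 61 on the lower side, and of 3 or more for 18 and 12. Of the 1530 probes (4.73%) past a log2 difference of 1, 1529 had values that did not overlap between the 3 F2RL2 and the 3 GPR124 arrays, as did 46.9% of all probes tested. The choice of called probes past a log2 difference of 1 nearly fixes this count. Which side held more probes depended on the scaling. Median centring in place of loess gave 35.9% of all calls higher, against 46.6%, and 42.2% higher past a log2 difference of 1. Cy3 alone, with no reference channel, gave 55.3% and 61.9%. The software's processed signals gave 3443 probes past a log2 difference of 1.

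**Figure D1:**
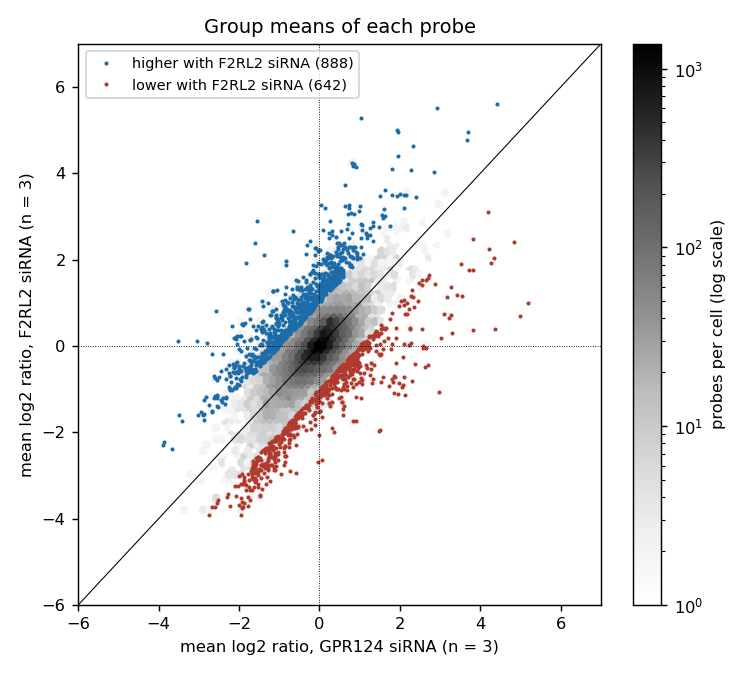
Mean log2 ratio over the reference of each probe with GPR124 siRNA (x axis) and with F2RL2 siRNA (y axis), 3 arrays per group; grey cells count probes on a log scale, the line marks equal values, and coloured points are the 888 higher and 642 lower probes called with a log2 difference of at least 1. The coloured points lie on both sides of both reference lines at 0.

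Among probes called and well above background in Cy3 on all 6 arrays, AGPOA3-21213 had the largest difference. Its log2 ratios were 2.94, 2.86 and 2.91 on F2RL2 replicates 1 to 3 and -1.53, -1.66 and -1.49 on GPR124 replicates 1 to 3. All F2RL2 arrays were above the reference and all GPR124 arrays below it, so the groups lay on opposite sides. The difference was 4.46 (SE 0.078), a 22.1-fold change (limma adjusted p = 1.38e-11). Control siRNA cells lay between, at 0.097 ± 0.11 (SD, n = 3), as did LGR4 siRNA cells at -0.32 ± 0.083 (n = 3). Both siRNAs were thus far from control at this probe, in opposite directions.

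AGPOA3-11649 was high in 3 of the 4 groups. It read 5.10, 5.37 and 5.39 on the F2RL2 arrays and 1.07, 1.18 and 0.86 on the GPR124 arrays, with control siRNA at 4.60 ± 0.081 and LGR4 siRNA at 4.21 ± 0.16 (SD, n = 3). The GPR124 arrays alone were low, and all 4 groups stayed above the reference. The difference between F2RL2 and GPR124 was 4.25 (SE 0.11), or 19.1-fold (limma adjusted p = 6.75e-10). The reference channel was well above background on 9 of 12 arrays, and normalised log2 Cy5 was 6.47 to 6.57 on the GPR124 arrays and higher on all F2RL2 arrays, at 7.77 on replicate 1 and 7.37 on replicate 2. The log2 difference was 4.82 in Cy3 alone and 3.55 with the processed signals, so its size depended on the processing.

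AGPOA3-26962 had the largest difference in the other direction. It read 0.70, 0.76 and 0.59 on the F2RL2 arrays and 3.58, 5.64 and 5.73 on the GPR124 arrays, a difference of -4.30 (SE 0.41, limma adjusted p = 4.66e-06). Control siRNA was intermediate at 2.59 ± 0.16 and LGR4 siRNA was near F2RL2 at 0.91 ± 0.12 (SD, n = 3). The spread of the GPR124 arrays came with the reference channel, which was well above background on 1 of 12 arrays: normalised log2 Cy5 was 8.07 on GPR124 replicate 1, where the ratio was lowest, and 6.42 and 6.50 on the other two. In Cy3 the GPR124 arrays read 11.2, 11.4 and 11.7 and the F2RL2 arrays 6.92, 6.84 and 6.88, a difference of -4.56 (SE 0.13, limma adjusted p = 7.12e-09). Without GPR124 replicate 1 the log ratio difference was -5.00, and with the processed signals it was -3.55.

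AGPOA3-39164 had the same order of groups. The F2RL2 arrays read 1.20, 0.84 and 0.95 and the GPR124 arrays 5.74, 6.12 and 3.71, a difference of -4.20 (SE 0.45, limma adjusted p = 1.09e-05), with control at 3.08 ± 0.23 and LGR4 siRNA at 1.12 ± 0.16 (SD, n = 3). The reference channel of this probe, too, was well above background on 1 of 12 arrays. Here the high Cy5 value lay on GPR124 replicate 3, at 7.97 against 6.37 and 6.48 on replicates 1 and 2, and again on the array with the lowest ratio. In Cy3 the difference was -4.48 (SE 0.16, limma adjusted p = 3.24e-08), from 7.10 ± 0.17 with F2RL2 siRNA to 11.6 ± 0.38 with GPR124 siRNA (SD, n = 3). Without GPR124 replicate 3 the log ratio difference was -4.94, and with the processed signals it was -2.70.

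**Figure D2:**
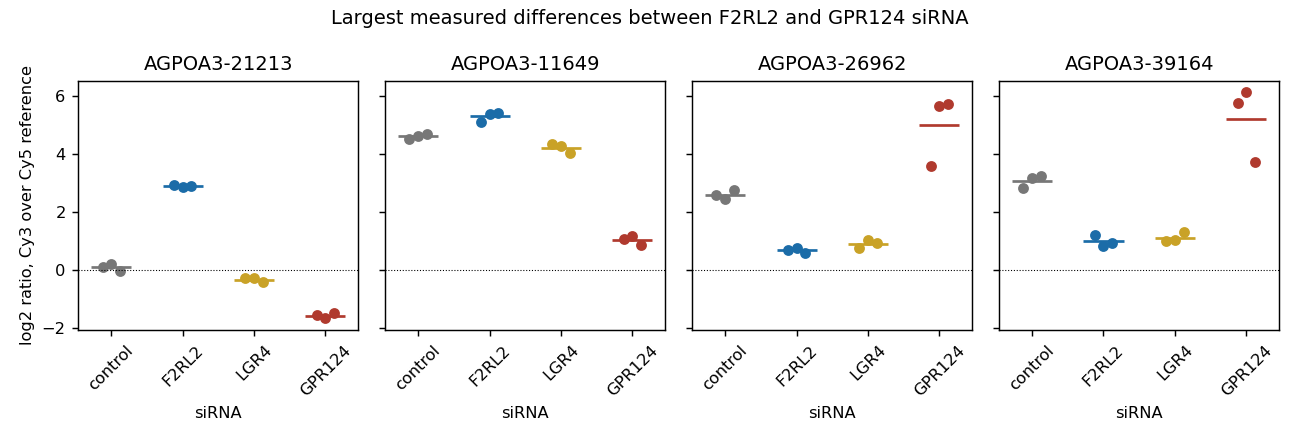
Log2 ratio over the day 0 reference (y axis) of 4 probes on each of the 12 arrays, grouped by siRNA (x axis); points are arrays and bars are group means (n = 3). The probes AGPOA3-21213 and AGPOA3-11649 are highest with F2RL2 siRNA, and AGPOA3-26962 and AGPOA3-39164 are highest with GPR124 siRNA, where 1 of 3 arrays lies below the other two.

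The 10 largest differences in each direction were taken among called probes that did not overlap between the groups and were well above background in Cy3 on all 3 arrays of the brighter group. They spanned 3.34 to 4.46 on the higher side and -4.30 to -3.13 on the lower side (largest limma adjusted p = 2.58e-05). Of the first 10, 5 were raised and 1 lowered in control differentiation, and of the 10 on the lower side 3 were raised and 3 lowered. The rest were in neither class as defined below. Control siRNA lay nearer to F2RL2 than to GPR124 siRNA for 9 of 10 on the higher and all 10 on the lower side. LGR4 siRNA did so for 5 and 7. For the lower probe ranked 4, the reference channel was well above background on 0 of 12 arrays, so its ratio rests on a dim reference.

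Some of these probes had almost the same profile. The higher probes ranked 7, 9 and 10 differed from each other by at most 0.25 on any of the 12 arrays, with F2RL2 means of 4.24, 4.17 and 4.21, GPR124 means of 0.81, 0.82 and 0.87, control means of 3.95, 3.88 and 3.90 and LGR4 means of 2.40, 2.43 and 2.43. The lower probes ranked 5 and 6 differed by at most 0.14 on any array, and the second of them read -1.98 with F2RL2 siRNA and 1.48 with GPR124 siRNA. Whether such probes report 1 transcript was not tested, so the number of probes is not a number of genes. Among the lower probes, 1 was not well above background in Cy3 on any F2RL2 array. Its mean Cy3 signal was about 23-fold lower with F2RL2 than with GPR124 siRNA. For this value, called a bound below, each F2RL2 array counted with the larger of its measured signal and the lowest signal flagged as well above background. Mean log2 Cy3 was 11.1 with GPR124 siRNA and, as measured, 6.55 with F2RL2 siRNA, which gives nearly the same fold. Here the value is thus an estimate from 3 arrays per group and not a lower limit. The log ratio difference of this probe passed the test (limma adjusted p = 2.58e-05). The 23-fold value is for the Cy3 channel after scaling between arrays and does not hold for the log ratio. There the measured group means were -1.06 ± 0.046 and 2.97 ± 1.35 (SD, n = 3), a 16.3-fold difference.

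For probes that differed between control siRNA cells and the day 0 reference, the difference between the knockdowns mostly went with the direction in control. The reference was not transfected, so the change in control cells mixes transfection and 4 days of culture with differentiation. Raised and lowered probes were taken from the control arrays, which are in neither group, as those that differed from the reference with an adjusted p under 0.05 (limma) and a log2 ratio of at least 1 or at most -1. They number 1171 (3.62%) and 1835 (5.67%). Of the 1171 raised probes, 654 were higher with F2RL2 than with GPR124 siRNA, 128 were lower and 389 did not pass, so that 55.8% were called higher, against 19.3% of all probes, and 66.8% were called in either direction. Their median difference was 0.44, with quartiles of 0.054 and 0.96, against -0.0037 over all probes tested. Of the 1835 lowered probes, 993 were lower with F2RL2 siRNA, 322 were higher and 520 did not pass, which is 54.1% lower, against 22.1% of all probes, and 71.7% called in either direction. Their median difference was -0.35, with quartiles of -0.78 and 0.072.

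On both sides the median probe lay further from the undifferentiated reference with F2RL2 than with GPR124 siRNA, while single probes went either way. The median log2 ratio of the raised probes was 1.27 with F2RL2 and 0.70 with GPR124 siRNA, and that of the lowered probes was -1.33 and -1.10. The difference grew with the control log ratio. It had a median of 0.17 for probes at 0.5 to 1 in control, 0.39 at 1 to 2, 0.53 at 2 to 3 and 0.79 at 3 or more, where 65.5% of 110 probes were called higher and 8.18% lower. On the other side the medians were -0.11 at -1 to -0.5, -0.26 at -2 to -1, -0.75 at -3 to -2 and -0.998 below -3, where 79.6% of 93 probes were called lower and 7.53% higher. For the 24090 probes within 0.5 of the reference in control the median was -0.0021.

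**Figure D3:**
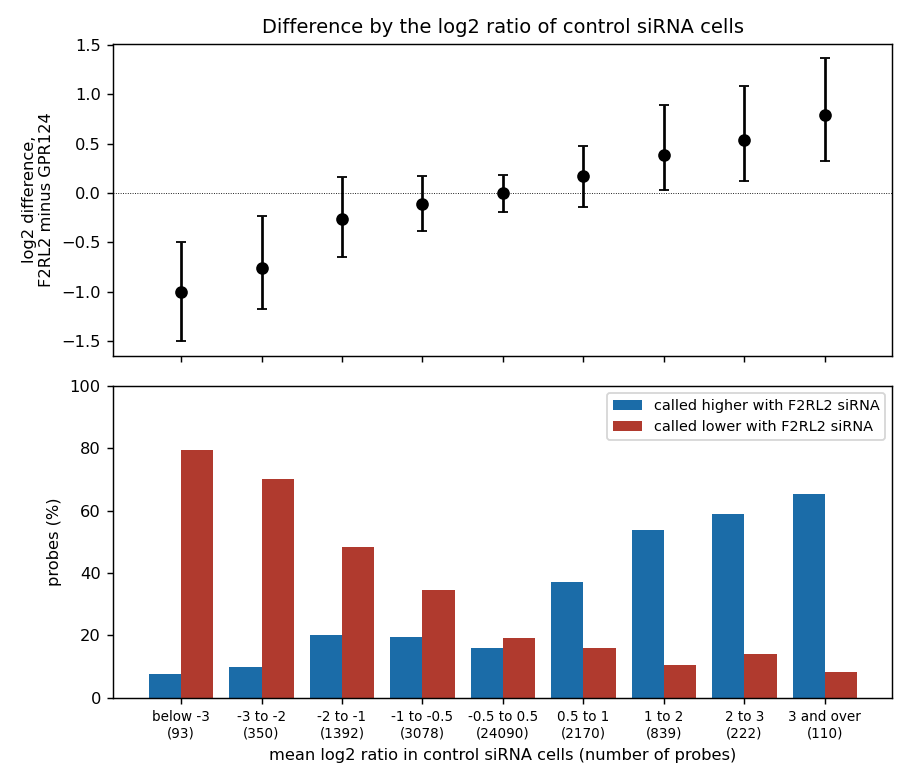
Probes grouped by their mean log2 ratio in control siRNA cells (x axis, number of probes in brackets). Top: median log2 difference between F2RL2 and GPR124 siRNA with its quartiles as bars; bottom: percent of probes called higher or lower with F2RL2 siRNA. The median goes from -0.998 below a control log ratio of -3 to 0.79 at 3 and over.

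Large differences were also found outside these classes. Of the 888 probes higher by at least 1, 275 (31.0%) were raised in control, 78 (8.78%) lowered and 535 (60.2%) in neither class. Of the 642 lower ones, 302 (47.0%) were lowered, 29 (4.52%) raised and 311 (48.4%) in neither class. Over all probes tested, 3.62% were raised, 5.67% lowered and 90.7% in neither class. Control cells lay within 0.5 of the reference for 327 probes on the higher side (36.8%) and 194 on the lower side (30.2%), against 74.5% of all probes tested. Of the probes in that range, 1.36% were higher and 0.805% lower by at least 1, against 2.75% and 1.98% of all probes.

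On single arrays the same contrast was seen. When an array's log ratios were regressed on the control mean, the slope was 0.796, 0.888 and 0.861 on F2RL2 replicates 1 to 3 and 0.675, 0.614 and 0.571 on GPR124 replicates 1 to 3. The lowest F2RL2 array lay above the highest GPR124 array. The means were 0.848 ± 0.047 and 0.620 ± 0.052 (SD, n = 3 each), a difference of 0.228 (2-sided exact permutation p = 0.1, the smallest that 3 arrays against 3 allow). The mean log2 ratio of the raised probes was 1.35, 1.39 and 1.39 with F2RL2 siRNA and 0.88, 0.94 and 0.78 with GPR124 siRNA, a difference of 0.51 (exact permutation p = 0.1, n = 3 per group). For the lowered probes it was -1.39, -1.55 and -1.52 against -1.25, -1.12 and -1.09, a difference of -0.33 (exact permutation p = 0.1, n = 3 per group). Over the 5 array measures tested this way, which include the spike-in slope (exact permutation p = 0.8, n = 3 per group) and the SD of the log ratios (exact permutation p = 0.1), these p-values became 0.125 after Benjamini-Hochberg adjustment. The control arrays chose the probes and the axis, so their own slopes near 1 are not a level to compare with.

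LGR4 replicate 3, on the slide of the GPR124 arrays, had a mean of 1.33 for the raised probes, between the 1.31 and 1.39 of the LGR4 arrays on slide 2 and above all 3 GPR124 arrays. For the lowered probes it read -1.15, within the range of the GPR124 arrays, with -1.29 and -1.20 on the other LGR4 arrays. Its slope of 0.719 was below the 0.796 and 0.742 of these arrays and above all GPR124 arrays.

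**Figure D4:**
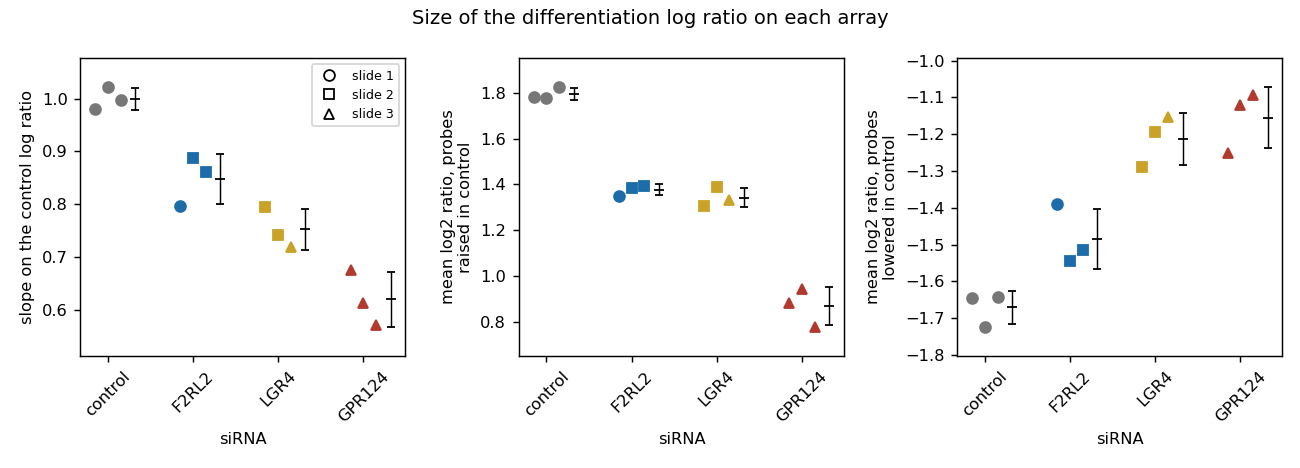
Regression slope on the control mean log ratio, and mean log2 ratio of the probes raised or lowered in control differentiation (y axes), for the 12 arrays by siRNA (x axis); symbols give the slide and bars the mean ± SD (n = 3). In all 3 panels the F2RL2 arrays do not overlap the GPR124 arrays.

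The groups outside the contrast lay mostly nearer to F2RL2 siRNA. For the 1530 probes past a log2 difference of 1, the control mean was placed on a line from the GPR124 mean (0) to the F2RL2 mean (1). Its median position was 0.81, with array medians of 0.78 to 0.84, and it was nearer to F2RL2 for 1260 probes (82.4%). The LGR4 mean had a median position of 0.74, with array medians of 0.69 to 0.78, and was nearer to F2RL2 for 1191 probes (77.8%). Both were nearer to F2RL2 for 989 probes and both nearer to GPR124 for 68. GPR124 and F2RL2 were the 2 outermost of the 4 groups for 910 probes. GPR124 was outermost and F2RL2 not for 554, and the opposite held for 32. Since the F2RL2 and GPR124 arrays chose the probes, these counts are a description.

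The order of control and LGR4 siRNA differed with the direction. Among the 888 probes higher with F2RL2 siRNA, the median position was 0.74 for control and 0.79 for LGR4. The array medians were 0.70 to 0.75 and 0.77 to 0.83. Among the 642 lower probes the median position was 0.88 for control and 0.64 for LGR4, with array medians of 0.82 to 0.94 and 0.58 to 0.74. Of these lower probes, 178 had control nearer to F2RL2 and LGR4 nearer to GPR124, against 31 the other way round. All control arrays were on slide 1 and the LGR4 arrays on slides 2 and 3, so slide and siRNA cannot be told apart here. Of the probes lower with F2RL2 siRNA, control was nearer to F2RL2 for 91.6% and LGR4 for 68.7%.

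**Figure D5:**
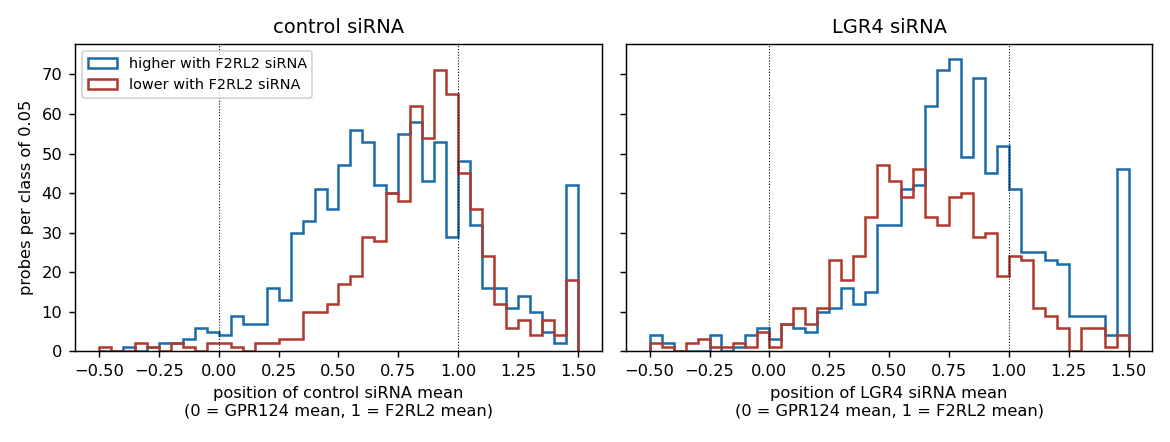
Number of probes (y axis, classes of 0.05) by the position of the control (left) and LGR4 (right) group mean between the GPR124 mean (0) and the F2RL2 mean (1) on the x axis, for probes called higher or lower with F2RL2 siRNA by at least 1; the end classes hold all values beyond the axis. For the lower probes the control median is 0.88 and the LGR4 median 0.64.

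Some probes lay on opposite sides of the day 0 reference with F2RL2 and GPR124 siRNA. With no dye swap, the side of a probe also holds any dye effect of that probe. With a log2 ratio of at least 0.5 on one side and at most -0.5 on the other, both called against the reference, 113 probes (0.349%) were above it with F2RL2 siRNA and below it with GPR124 siRNA, with medians of 0.80 and -0.80. The opposite held for 86 probes (0.266%), with medians of -0.74 and 0.77. In control cells 87 of the 113 lay above the reference, and 77 of the 86 lay below it. LGR4 siRNA cells were above for 99 of the 113 and below for 68 of the 86. By the sign of the mean alone, whatever its size, control and LGR4 siRNA were thus mostly on the side of F2RL2. Of the 113, 20 were in the class raised in control and 1 in the lowered class. Of the 86, 13 were lowered and 0 raised. With each side required to reach 1 in place of 0.5, 17 such probes remained in all, and with the processed signals 446 passed at 0.5. Of the 888 probes higher by at least 1, 264 were above the reference in both groups, 180 below it in both and 444 above it with F2RL2 siRNA alone. Of the 642 lower ones, 88 were above in both, 283 below in both and 271 above with GPR124 siRNA alone.

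More probes were well above background on the F2RL2 arrays alone than on the GPR124 arrays alone. Those of the F2RL2 arrays were also seldom detected on the LGR4 array of slide 3. A total of 425 probes were well above background in Cy3 on all 3 F2RL2 arrays and on no GPR124 array, and 33 the other way round. On the control arrays 73.9% to 82.4% of the 425 were well above background, and on LGR4 replicates 1 and 2 81.9% and 70.6%. On LGR4 replicate 3, on the slide of the GPR124 arrays, it was 12.9%. The 33 probes did not show such a pattern. Of these, 18.2% were well above background on LGR4 replicate 3, and 33.3% and 45.5% on LGR4 replicates 1 and 2. On the control arrays it was 15.2% to 27.3% of the 33. Most of the 425 were near the limit of detection: their median bound was 1.14-fold, 16 reached a bound of at least 2-fold, and 182 were called higher with F2RL2 siRNA, against 19.3% of all probes. The 33 probes of the other direction had a median bound of 2.18-fold, 18 reached at least 2-fold, and 25 were called lower with F2RL2 siRNA, against 22.1% of all probes. Both sets were chosen on detection in the same arrays, which favours calls in these directions, so nothing is read from these counts. With a processed signal on the brighter side of at least 2 times the lowest flagged signal, 171 and 16 were left.

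Dim probes were called less. Among 5 equal classes of mean log2 intensity, 15.6% of the dimmest probes were called and 0.448% with a log2 difference of at least 1. In the brightest class this was 54.9% and 6.96%. With loess scaling, the lead of the higher side among large differences lay in the bright probes, with 323 higher and 127 lower in the brightest class and 15 and 14 in the dimmest.

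The difference was carried by the Cy3 channel, that of the transfected cells. Regressed across probes on the difference in log ratio, the Cy3 difference had a slope of 0.940 and the Cy5 difference one of 0.00018. Of the 1530 probes past a log2 difference of 1, 1529 had the same direction in Cy3 alone and 1508 were also called there (limma, Benjamini-Hochberg). Of all 13376 probes called, 9192 were also called in Cy3 in the same direction. The log ratio contains the Cy3 signal of the same spots, so choosing probes with a large difference favours such counts. In Cy5, where all arrays carry the reference, 257 probes (0.795%) were called, 40 of them with a difference of at least 1. Over the 1530 probes the median absolute difference was 0.13 in Cy5 and 1.28 in Cy3, and 22 of them differed in Cy5 by at least 1.

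A fit with slide as a block compared the groups through LGR4 siRNA: 2 F2RL2 with 2 LGR4 arrays on slide 2, and 1 LGR4 with 3 GPR124 arrays on slide 3. With slide as a fixed block on all 12 arrays, 5259 probes were called instead of 13376, and 5084 of the 13376 were among them with the same direction. The linked slides alone gave 3021. The large differences were kept more often, with 1437 of the 1530 called in the same direction under the block and 1275 on the linked slides alone (limma, Benjamini-Hochberg). Their choice by size in the same arrays favours this. The raised probes had a median difference of 0.47 and the lowered probes of -0.33 under the block. For AGPOA3-21213, the step from F2RL2 to LGR4 siRNA on slide 2 was 3.16 and that from LGR4 to GPR124 siRNA on slide 3 was 1.14. For AGPOA3-11649 the steps were 1.08 and 3.00, for AGPOA3-26962 -0.23 and -4.06, and for AGPOA3-39164 -0.13 and -3.88. Over the 1530 probes, the step on slide 3 had the direction of the whole difference for 1472 and the step on slide 2 for 1199, with median absolute sizes of 0.92 and 0.39. Both steps reuse F2RL2 or GPR124 arrays that chose these probes, which favours these directions, so the counts are a description. The step on slide 3 rests on 1 LGR4 array.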

How the data were processed

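Spots of 2-colour Agilent arrays were quantified by the authors with Agilent Feature Extraction 9.5.3.1, per the file headers. The deposited intensity columns are median pixel brightness of spot and local background, not normalized, and a processed signal intensity that the software had background-subtracted, detrended and dye-normalized. The deposited log10 ratio column (Cy5 over Cy3) was not used for values. The authors' deposited log2 table equals the log2 ratio of the processed signals, Cy3 over Cy5, within 0.01 for 100% of its values, which settles its scale and direction and shows no further centring. Its column medians were 0.12, 0.14 and -0.12 for F2RL2 siRNA, -0.28, -0.18 and -0.25 for GPR124 siRNA, and 0.10 to 0.16 for the other arrays.

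Signals were background-corrected (normexp, offset 50) and normalized by loess within each array, where the 1417 control spots had weight 0. Ratios are Cy3 over Cy5. Scanner-marked outlier spots were left out, and no probe spot was saturated. Of 43221 probes, 32346 were well above background in 1 channel on at least 3 of 12 arrays, and 2 of these had no value in 1 group. limma 3.58.1 in R 4.3.3 (lmFit, eBayes, 12 arrays, 1 coefficient per siRNA) gave the contrast, which gives the control and LGR4 arrays no weight except in the spread. On simulated data, where 100 of 31663 probes changed by each size, its code recovered 91% of changes of log2 1 and 50% of those of log2 0.5. In the measured data far more probes were called, which makes the cut-off of the adjustment less strict. The shares recovered thus check the code and do not carry over to this contrast. Probes that did not pass are still not shown to be unchanged. A contrast that the arrays with a value could not give was left without one. Array measures were tested with exact permutation tests.

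None of the probe names matched the gene tables used here (0 matches), so the gene and marker lists prepared were not analysed here. Identifiers are printed for the 2 higher and 2 lower probes with the largest difference among those called and well above background in Cy3 on all 6 arrays. The comparison and these rules were chosen with earlier results of these data known. Alternatives were processed signals, median centring, Cy3 alone, other filters, 6 arrays, slide or replicate number as a block, and each array left out. The number of arrays limits the precision.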

Additional observations from a re-analysis of the deposited data

Results flagged for a closer look

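Both results below concern the probes at least 0.5 (log2) from the common reference on opposite sides with the 2 siRNAs, each side called against the reference and the difference between the groups itself called (limma, Benjamini-Hochberg). Of the 113 such probes above it with F2RL2 and below it with GPR124 siRNA (0.349% of those tested), 109 had all 3 F2RL2 arrays above and all 3 GPR124 arrays below. Of the 86 in the opposite direction (0.266%), 83 had every array of each group on its group's side. The same arrays chose these probes, and that choice nearly fixes both counts. Slide and siRNA cannot be told apart within the 6 arrays.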

How the results depend on the processing

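The number of called probes was within 1.5 times of 13376 except with median centring (8758), slide as a fixed block (5259) and the linked slides (3021), and was 11324 to 13611 with each array left out. Past a log2 difference of 1 it was 3443 with the processed signals, and 1354 to 1715 with each array left out. Across 8 settings (processed signals, median centring, Cy3 alone, 6 arrays, 3 slide fits, replicate block), 2692 of the 13376 and 1259 of the 1530 were called in the same direction each time. The settings reuse the arrays that chose these probes, which favours such counts. The slope difference was 0.194 to 0.290 in all its settings and 0.204 to 0.256 with each array left out. The raised probes' median difference was 0.50 with the processed signals, 0.35 with median centring and 0.59 at a control log ratio of at least 2 (0.40 to 0.48 with each array left out). The lowered probes' was -0.44 with the processed signals and -0.81 at a control log ratio of at most -2 (-0.40 to -0.31 with each array left out). Probes detected in 1 group fell from 458 to 187 with the stricter rule. The control position was 0.86 with median centring. Opposite-side probes numbered 446 with the processed signals and 17 when each side had to reach 1. The 4 identified probes kept direction and call in every setting that held them (adjusted p at most 0.0483, limma), with differences as small as -2.70 for AGPOA3-39164 with processed signals. Their choice by size in the same arrays nearly fixes this. With each array left out their differences were 4.41 to 4.50 for AGPOA3-21213 and 4.16 to 4.35 for AGPOA3-11649. For AGPOA3-26962 the range was -5.00 to -3.93 and for AGPOA3-39164 -4.94 to -3.73. The strict filter left out AGPOA3-26962 and AGPOA3-39164. Deviations of same-numbered F2RL2 and GPR124 arrays correlated at -0.587, -0.519 and 0.019. With so few arrays, on different slides, these values cannot settle whether the replicate numbers pair the arrays. The replicate block gave 12489 calls, 1534 past a log2 difference of 1. The causes were not tested.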
